A study of Mus musculus with 12 samples.

Results

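The genes described here are 10 members of the fibroblast growth factor (FGF) pathway: the ligand Fgf9, the receptors Fgfr1, Fgfr2 and Fgfr3, the feedback inhibitors Spry1, Spry2, Spry4 and Dusp6, and the ETS factors Etv4 and Etv5. They were chosen by name, and all of their 19 array probes were taken, out of 32678 genes on the array. RNA came from 12 mouse colonies, each 1 colony of cells grown in culture from dental epithelium, the labial cervical loop, where the stem cells of the growing incisor lie. There were 4 colonies labelled Bmi1-;Ink4a/Arf- (Bmi1-/-;Ink4a/Arf in the series title, called double null here), 4 labelled Bmi1- (Bmi1-/- in the title, Bmi1 null here) and 4 WT colonies, all on a mixed genetic background. The sources used here do not say how the alleles were made. Double null and Bmi1 null colonies both lack Bmi1, a Polycomb repressor whose best known target is the Ink4a/Arf locus. The sources used here state neither how many mice gave the colonies nor their ages, so p-values measure the spread between colonies. An array of amplified RNA from a whole colony cannot tell fewer cells of a type from less RNA per cell.

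FGF ligands bind receptor tyrosine kinases, which signal through RAS and the kinase ERK to transcription factors such as Etv4 and Etv5. ERK signalling also switches on its own brakes, the Sprouty proteins, which act on the pathway upstream of ERK, and Dusp6, a phosphatase that inactivates ERK, so these genes are widely read as markers of pathway activity. In the incisor, FGFs pass between the dental epithelium and the mesenchyme next to it, and mice that lack Sprouty genes make enamel on the side of the tooth that normally has none.

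Between the mutants, Spry1 and Etv5 rose and Dusp6 did not pass the test, so the 250 bases before the starts of these 3 genes are shown (RefSeq, GRCm38.p6). The capitals mark GGAA, the core that ETS factors such as Etv4 and Etv5 bind, or its reverse complement TTCC. The windows are Spry1 at chr3:37639697-37639946 on the plus strand, Etv5 at chr16:22439571-22439820 and chr16:22438369-22438618 on the minus strand for its 2 starts, and Dusp6 at chr10:99262981-99263230 on the plus strand, each read 5′ to 3′ on the gene's strand.
Spry1: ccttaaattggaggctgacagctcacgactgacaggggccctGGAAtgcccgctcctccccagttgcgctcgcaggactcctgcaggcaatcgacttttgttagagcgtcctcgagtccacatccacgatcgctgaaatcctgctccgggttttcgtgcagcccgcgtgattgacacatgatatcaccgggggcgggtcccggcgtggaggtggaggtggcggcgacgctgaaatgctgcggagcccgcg
Etv5 first start: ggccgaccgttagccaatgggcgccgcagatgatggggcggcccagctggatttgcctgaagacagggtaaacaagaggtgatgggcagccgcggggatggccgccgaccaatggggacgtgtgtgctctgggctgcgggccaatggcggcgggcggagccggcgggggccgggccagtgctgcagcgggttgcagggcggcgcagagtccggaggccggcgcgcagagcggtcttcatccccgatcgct
Etv5 second start: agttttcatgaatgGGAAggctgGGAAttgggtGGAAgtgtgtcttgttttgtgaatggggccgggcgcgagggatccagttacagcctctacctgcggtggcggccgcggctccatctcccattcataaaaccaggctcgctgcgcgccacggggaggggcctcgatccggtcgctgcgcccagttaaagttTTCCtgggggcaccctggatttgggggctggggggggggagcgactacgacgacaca
Dusp6: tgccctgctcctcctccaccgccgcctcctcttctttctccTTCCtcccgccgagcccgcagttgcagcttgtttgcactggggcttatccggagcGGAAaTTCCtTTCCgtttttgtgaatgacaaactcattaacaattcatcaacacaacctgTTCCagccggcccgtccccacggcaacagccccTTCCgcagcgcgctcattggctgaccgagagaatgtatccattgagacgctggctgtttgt
The Spry1 window held 1 GGAA on either strand, the Etv5 windows held 0 and 4, and the Dusp6 window held 6. A match was common: GGAA stood on either strand in 93.4% of 32851 promoter windows of this length. The longer GGAAGT, which contains GGAA, stood in 19.7% of them and once in the second Etv5 window. The table of promoters held 7 of the 10 members. These windows and motifs were chosen after the values were seen.

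Bmi1 signal was lower in both mutants than in WT, and Cdkn2a signal stood well above background in Bmi1 null colonies alone. Bmi1 was at −2.54 ± 0.20 in double null, −2.36 ± 0.15 in Bmi1 null and −0.27 ± 0.46 in WT colonies (log2 signal less the 75th percentile of its array, the scale of all levels below; SD, n = 4 each). This brightest Bmi1 probe was well above background on 4 of 4 arrays of each genotype. Relative to the median of all genes its change against WT was −0.86 in double null and −0.85 in Bmi1 null colonies. A second Bmi1 probe changed more, by −3.95 in double null and −4.13 in Bmi1 null colonies against WT before any median was taken off (log2, limma adjusted p = 6.61e-07 and 5.45e-07). Cdkn2a, the Ink4a/Arf gene, was well above background on 0 of 4 double null arrays, 4 of 4 Bmi1 null arrays and 0 of 4 WT arrays. On this scale double null colonies had a Cdkn2a signal at least 2.53-fold lower than Bmi1 null colonies. Bmi1 null colonies had one at least 1.76-fold higher than WT colonies. A bound sets the probe against the dimmest signal well above background. Cdkn2a passed the probe filter through the Bmi1 null arrays alone, so calls of these differences are no support for them. In the authors' table the differences were −0.90 and 1.02 (log2). After normexp background correction neither was called, at 0.11 and −0.15 (limma adjusted p = 0.860 and 0.722). The WT arrays stood apart in their range of signals. The interquartile range of log2 signal was 4.69 ± 0.36 on double null, 4.52 ± 0.18 on Bmi1 null and 2.56 ± 0.06 on WT arrays (SD, n = 4 each), and 49.3% to 71.9%, 52.1% to 70.5% and 96.5% to 99.5% of olfactory receptor genes were well above background on them. Against WT the median change of all genes was far from 0, at −1.41 (log2) for double null and −1.24 for Bmi1 null colonies. Medians were −0.38 and −0.31 when arrays were scaled to their medians. For the brightest probe of a member, changes against WT are given with their value relative to that median and with their range over 4 other treatments of the signal: median scaling, quantile normalization, normexp background correction and the authors' table. The part of the array range in these changes was not tested. Between double null and Bmi1 null colonies the median was −0.07. The 13 epithelial markers measured were well above background on all 12 arrays. That tells little on WT arrays, where 90.7% to 96.9% of all spots other than controls passed. The mean level of the epithelial markers was 3.77 to 4.18 on double null, 3.1 to 3.51 on Bmi1 null and 1.72 to 2.38 on WT arrays.

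Spry1 and Etv5 separated the mutants. Spry1 encodes a Sprouty inhibitor of receptor tyrosine kinase signalling, and Etv5 an ETS factor induced by FGF. On the 4 double null arrays Spry1 was at 0.69, 0.41, 0.72 and 0.32, on the 4 Bmi1 null arrays at −0.12, −1.61, −1.13 and −2.01, and on the 4 WT arrays at −2.01, −1.72, −1.91 and −1.70. Every double null colony lay above every Bmi1 null colony, the Bmi1 null colonies were widely spread, and the lowest of them lay within the WT range. Double null colonies had 3.37-fold more Spry1 signal than Bmi1 null colonies (log2 fold change 1.75 ± 0.33, SE, limma adjusted p = 0.00707). Etv5 was at 0.68, 0.07, 0.45 and 0.30 on double null arrays, at −0.37, −0.65, −0.65 and −0.69 on Bmi1 null arrays and at −0.62, −0.55, −0.44 and −0.26 on WT arrays. The double null colonies again lay above all others, while Bmi1 null and WT colonies overlapped. For Etv5 the double null colonies were 1.95-fold above the Bmi1 null colonies (log2 fold change 0.97 ± 0.18, SE, limma adjusted p = 0.00786). Its second, dimmer probe averaged −3.97 ± 0.30 in double null and −4.78 ± 0.28 in Bmi1 null colonies (SD, n = 4 each), a difference of 0.82 that did not pass the test (limma adjusted p = 0.0502).

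**Figure D1:**
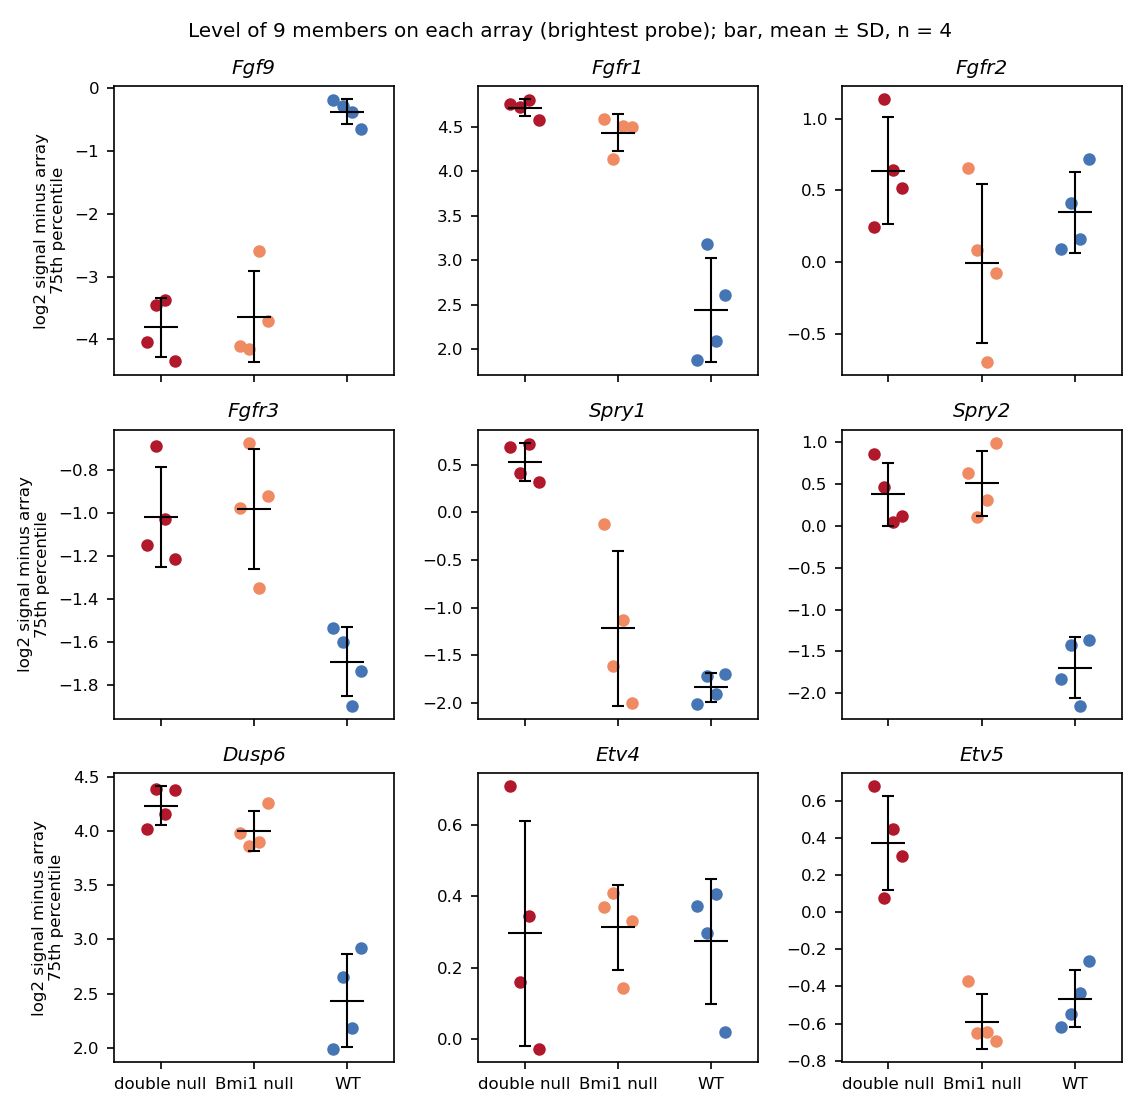
Level of each of the 9 tested genes on each array (brightest probe), as log2 signal less the 75th percentile of its array, in double null, Bmi1 null and WT colonies. Points are single colonies and bars the mean ± SD of 4. For Spry1 and Etv5 all double null points lie above all Bmi1 null points, and for Fgf9 all WT points lie above the rest.

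These 2 were the members called among 9 tested between the mutants, where 7.56% of all 31064 genes were called, 2.75% higher and 4.8% lower. They were also the members with no overlap on the higher side, as 6.48% of genes were. The calls depended on the slide term: with the slide as a block neither call remained (limma adjusted p = 0.116 and 0.0689), and 0.95% of all genes were then called. The log2 fold changes did not shrink, at 1.84 for Spry1 and 1.10 for Etv5. The block also leaves less information on the spread between arrays, and the part of that in the lost calls was not tested. Within the slides that held both mutants, the differences were 2.33 (1 colony against 1) and 1.63 (2 against 1) for Spry1, and 1.10 and 1.14 for Etv5. Leaving out 1 colony at a time kept both calls, at 1.49 to 2.12 for Spry1 and 0.87 to 1.07 for Etv5. The epithelial marker level, 3.77 to 4.18 on double null against 3.1 to 3.51 on Bmi1 null arrays, moved the same way. So did the mean level of 7 dental epithelial stem cell markers, at −1.60 to −1.09 against −2.98 to −2.52, with WT at −1.43 to −1.24. The 7 include Bmi1, which both mutants lack. On all 4 arrays, 6 were well above background in double null and 5 in Bmi1 null colonies. Shh was not well above background on any double null array, so the 7 did not move as a group. The part of these shifts in the results was not tested.

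The closest relatives of Spry1 and Etv5 did not pass the test between the mutants. Spry2, the other measured Sprouty inhibitor, was at 0.86, 0.47, 0.05 and 0.12 on double null, 0.63, 0.10, 0.30 and 0.99 on Bmi1 null and −1.83, −1.43, −2.15 and −1.37 on WT arrays. The mutants overlapped and lay above WT. Spry2 differed between the mutants by −0.13 (95% interval −0.71 to 0.45). Etv4, the ETS factor closest to Etv5 in the list, was at 0.71, 0.16, 0.35 and −0.03 on double null, 0.37, 0.41, 0.14 and 0.33 on Bmi1 null and 0.37, 0.30, 0.41 and 0.02 on WT arrays. All 3 genotypes overlapped, and between the mutants Etv4 differed by −0.02 (95% interval −0.44 to 0.41). Dusp6 differed by 0.24 (95% interval −0.25 to 0.72). The change of Spry1 less that of Spry2 was 1.88 and less that of Dusp6 1.52, and the change of Etv5 less that of Etv4 was 0.98 and less that of Dusp6 0.73, when the difference of the pair was taken within each array. These pairs were chosen after the values were seen, for their different changes, so the differences are a description with no test.

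Fgf9, a ligand made by dental epithelium that acts on the mesenchyme beneath it, was the member that fell in both mutants. It was at −4.05, −3.45, −3.37 and −4.35 on double null, −4.10, −4.15, −2.59 and −3.71 on Bmi1 null and −0.19, −0.28, −0.38 and −0.65 on WT arrays, well above background on every one. All mutant colonies lay below all WT colonies. The log2 fold change was −3.43 ± 0.34 in double null against WT (SE, limma adjusted p = 1.29e-06), or −2.03 relative to the median of all genes. In Bmi1 null against WT it was −3.26 ± 0.34 (limma adjusted p = 2.21e-06), or −2.02 relative to the median. Under the 4 other treatments it was called lower each time, at −2.65 to −1.59 in double null and −2.60 to −1.57 in Bmi1 null colonies. Between the mutants Fgf9 differed by −0.17 (95% interval −0.90 to 0.56).

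The receptors did not move as a group. Fgfr1, the receptor whose probes all rose, was at 4.76, 4.72, 4.80 and 4.58 on double null, 4.59, 4.14, 4.52 and 4.50 on Bmi1 null and 1.87, 3.18, 2.09 and 2.61 on WT arrays. The mutants overlapped each other and lay above WT. It was 2.28 ± 0.26 higher in double null than in WT (log2, SE, limma adjusted p = 4.26e-06) and 2.00 ± 0.26 higher in Bmi1 null than in WT (limma adjusted p = 1.45e-05), or 3.68 and 3.24 relative to the median. Under the other treatments it was called at 1.25 to 3.31 in double null and 1.02 to 2.93 in Bmi1 null colonies, lowest with quantile normalization. Its other 2 probes rose too, by 1.73 and 1.76 in double null and by 2.13 and 1.65 in Bmi1 null colonies. By percentile rank among the probes of its array, the brightest probe stood at 98.48 to 99.01 in double null colonies. Its rank was 98.28 to 98.80 in Bmi1 null and 94.80 to 98.31 in WT colonies, which overlapped.

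Fgfr2, the main FGF receptor of epithelium, gave different answers by probe. On its brightest probe it was at 0.25, 1.14, 0.64 and 0.52 on double null, 0.65, 0.09, −0.70 and −0.07 on Bmi1 null and 0.09, 0.42, 0.16 and 0.72 on WT arrays. The 3 genotypes overlapped, and the difference from WT was 0.29 ± 0.29 in double null and −0.35 ± 0.29 in Bmi1 null colonies (log2, SE, limma adjusted p = 0.356 and 0.266), or 1.70 and 0.88 relative to the median. Under the other treatments it stood at 0.07 to 1.32 in double null, called with median scaling, and at −0.55 to 0.58 in Bmi1 null colonies, called in none. The 2 dimmer probes rose, by 1.21 and 0.90 in double null (limma adjusted p = 2.51e-05 and 0.000623) and by 0.72 and 0.58 in Bmi1 null colonies (adjusted p = 0.00170 and 0.0118 by limma). Between the mutants all 3 probes were higher in double null colonies, by 0.64, 0.50 and 0.32, and none passed the test (limma adjusted p = 0.202, 0.0966 and 0.341).

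Fgfr3 also split by probe. The probe that stood for it averaged −1.02 ± 0.23 in double null, −0.98 ± 0.28 in Bmi1 null and −1.69 ± 0.16 in WT colonies (SD, n = 4 each), with both mutants above WT and overlapping each other. It was 0.67 ± 0.20 higher in double null than in WT (log2, SE, limma adjusted p = 0.00677) and 0.71 ± 0.20 higher in Bmi1 null than in WT (limma adjusted p = 0.00500), or 2.08 and 1.95 relative to the median. Under the other treatments it was called at 0.48 to 1.75 in double null and 0.43 to 1.76 in Bmi1 null colonies. The percentile rank of that probe was 61.6 to 67.7 in double null, 59.6 to 67.2 in Bmi1 null and 36.3 to 43.3 in WT. A second probe rose by 0.39 in double null (limma adjusted p = 0.0337) and stood at 0.32 in Bmi1 null colonies (limma adjusted p = 0.0766). The third was called lower than in WT, at −1.06 and −0.84 (limma adjusted p = 0.000627 and 0.00333), which was 0.01 and 0.08 relative to the median of all probes. With the mean of the 3 probes Fgfr3 was called in neither comparison.

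**Figure D2:**
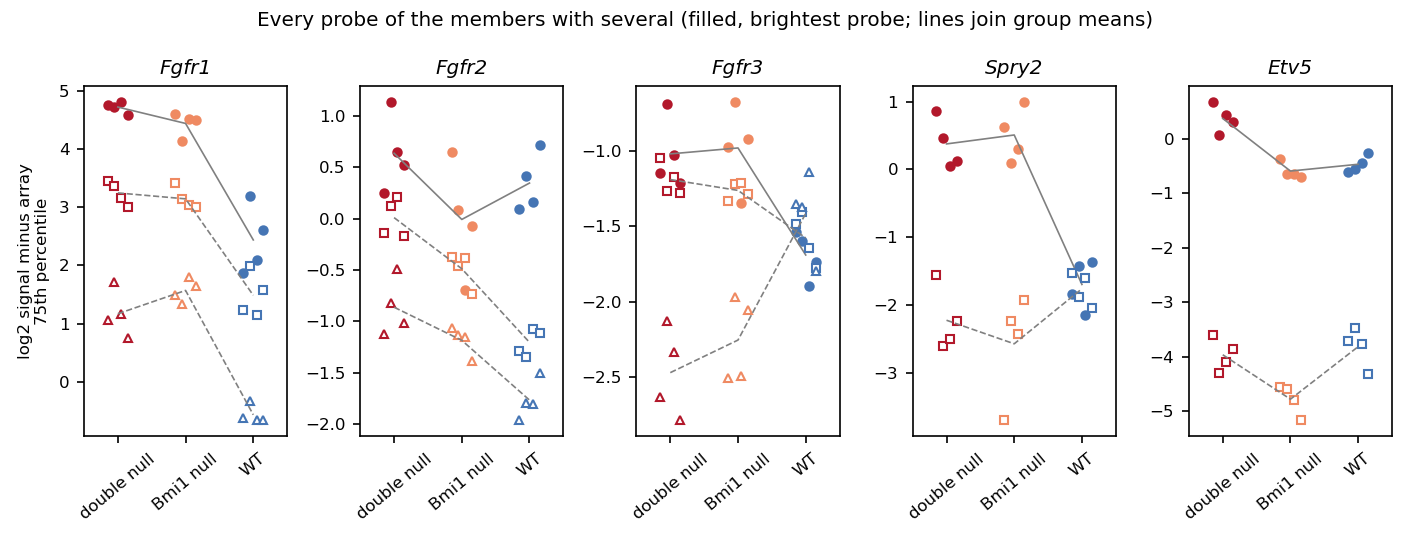
Every probe of the 5 genes with several that were tested, as log2 signal less the 75th percentile of its array, by genotype. Filled points are the brightest probe, open ones the others, and lines join the means of 4 arrays. The 3 Fgfr1 probes are higher in both mutants than in WT, while Fgfr2, Fgfr3, Spry2 and Etv5 each have a probe whose difference from WT departs from that of the brightest one.

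Among the feedback inhibitors, Dusp6 and Spry2 were called higher in both mutants than in WT, though Dusp6 ranks overlapped between Bmi1 null and WT colonies. Dusp6 was at 4.02, 4.39, 4.16 and 4.38 on double null, 3.98, 3.86, 3.90 and 4.27 on Bmi1 null and 1.98, 2.65, 2.18 and 2.92 on WT arrays. The mutants overlapped and lay above WT. Its log2 fold change against WT was 1.80 ± 0.22 in double null (SE, limma adjusted p = 8.72e-06) and 1.57 ± 0.22 in Bmi1 null colonies (limma adjusted p = 3.18e-05), or 3.21 and 2.81 relative to the median. Under the other treatments it stood at 0.63 to 2.83 in double null and 0.39 to 2.5 in Bmi1 null colonies. The lowest values are those of the authors' table, where the change in Bmi1 null colonies was not called (limma adjusted p = 0.0922). The percentile rank of Dusp6 was 97.90 to 98.39 in double null, 97.51 to 98.11 in Bmi1 null and 95.31 to 97.59 in WT. On the brightest Spry2 probe the rank was 75.5 to 83.6, 76.1 to 84.4 and 31.6 to 47.7 in the same order. Spry2 was 2.07 ± 0.27 higher in double null than in WT (SE, limma adjusted p = 1.21e-05) and 2.20 ± 0.27 higher in Bmi1 null than in WT (limma adjusted p = 8.17e-06), or 3.47 and 3.44 relative to the median, and it was called at 1.64 to 3.1 in double null and 1.81 to 3.13 in Bmi1 null colonies under the other treatments. A second, dimmer Spry2 probe stood at −0.46 in double null (limma adjusted p = 0.235) and fell by 0.81 in Bmi1 null colonies (limma adjusted p = 0.0488), or 0.60 and 0.11 relative to the median of all probes. Spry1 was 2.37 ± 0.33 higher in double null than in WT (SE, limma adjusted p = 2.07e-05), or 3.78 relative to the median, and was called at 1.87 to 3.40 under the other treatments. In Bmi1 null against WT its difference was 0.62 ± 0.33 and did not pass the test (limma adjusted p = 0.0947), or 1.86 relative to the median. It was called with median scaling, at 1.55, after quantile normalization, at 1.77, and by the authors' table, at 1.54, but not after normexp, at 0.44. With 1 colony left out it ran from 0.25, without Bmi1 null replicate 1, to 0.88, without Bmi1 null replicate 4, and was called without Bmi1 null replicate 4 alone. Spry4, the Sprouty gene whose loss with Spry2 is known for enamel defects in mice, was not well above background with 1 of its 2 probes on any array and with the other on 1 WT array alone, so it was not tested.

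The ETS factors gave no common direction against WT. Etv5 was 0.84 ± 0.18 higher in double null than in WT (log2, SE, limma adjusted p = 0.000869), or 2.25 relative to the median. It was called at 0.68 to 1.87 under the other treatments. In Bmi1 null against WT it stood at −0.12 ± 0.18 (limma adjusted p = 0.535), or 1.11 relative to the median, at −0.15 to 0.81 under the other treatments, and was called higher with median scaling. The second Etv5 probe stood at −0.15 in double null (limma adjusted p = 0.559) and fell by 0.96 in Bmi1 null colonies (limma adjusted p = 0.00193), or 0.92 and −0.04 relative to the median of all probes. With the mean of both probes Etv5 stood at 0.35 in double null, not called (limma adjusted p = 0.0893), and was called lower in Bmi1 null colonies, at −0.54 (limma adjusted p = 0.0136). Etv4 stood at 0.02 ± 0.19 in double null and 0.04 ± 0.19 in Bmi1 null colonies (adjusted p = 0.917 and 0.856 by limma), or 1.43 and 1.28 relative to the median. With median scaling it was called higher, at 1.05 and 0.97, and in the authors' table it was not called, at −0.18 and −0.26. Its percentile rank among the probes of its array was 74.7 to 82.4 in double null, 76.5 to 79.3 in Bmi1 null and 75.3 to 81.5 in WT colonies. The ranks of the 3 genotypes overlapped, so the sign of any Etv4 change against WT rested on the scaling.

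**Figure D3:**
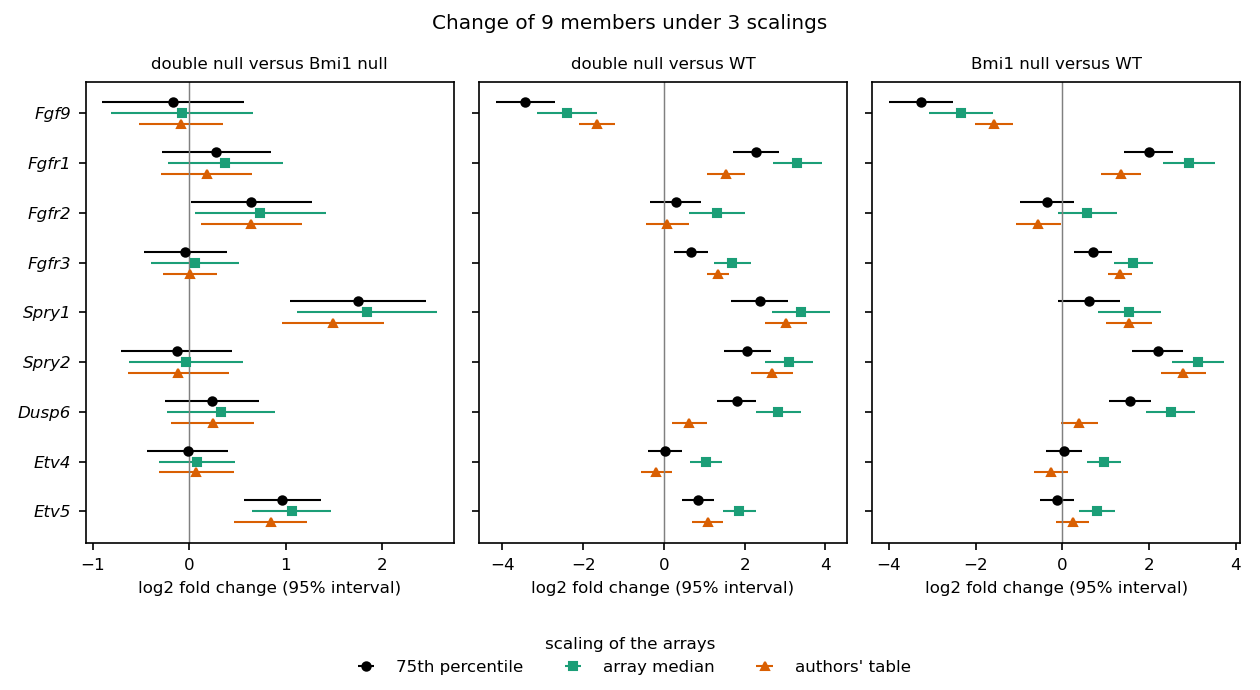
Log2 fold change of the 9 tested genes with 95% intervals in the 3 comparisons, under 3 scalings of the arrays. Between the mutants the scalings give nearly the same values and Spry1 and Etv5 stand above 0, while against WT the values shift with the scaling and Etv4 crosses 0.

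In double null against WT, 7 of 9 members were called, 6 of them higher and 1 lower, where 85.5% of all genes were called, 25.5% higher and 59.9% lower. In Bmi1 null against WT, 5 of 9 were called, 4 of them higher and 1 lower, where 83.5% of all genes were called, 25.2% higher and 58.3% lower. The members' median change was 0.84 and 0.62, against −1.41 and −1.24 for all genes. Both comparisons share the WT arrays, so they are not separate evidence. Median scaling called 9 members in double null and 8 in Bmi1 null colonies, where it called 79.6% and 78.7% of all genes.

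The rest of the pathway was read from a list of 74 other FGF genes, of which 69 were tested. Genes listed as ligands were low in both mutants: 0 of 20 rose and 19 fell in each comparison with WT, where 59.9% and 58.3% of all genes fell. The ligand list includes Fgf11, Fgf12, Fgf13 and Fgf14, members of the family that are not secreted. The median of the 20 was −0.50 in double null and −0.45 in Bmi1 null colonies relative to all genes. In the same order it was −0.96 and −0.97 after quantile normalization and −0.78 and −0.66 in the authors' table. With median scaling 11 fell and 1 rose in each, where 79.6% and 78.7% of all genes were called in either direction. Shares of all genes by direction are not given for median scaling. Its counts by role, here and below, are therefore a description alone. Fgf10, the mesenchymal ligand that supports the stem cells of the cervical loop, was well above background on 1 of 4 double null, 0 of 4 Bmi1 null and 4 of 4 WT arrays. On the 75th percentile scale Bmi1 null colonies had a signal at least 11.3-fold lower than WT colonies. The difference of the means was −5.21 (log2), or −3.97 relative to the median of all genes, with the Bmi1 null values not well above background. Fgf10 passed the probe filter through the WT arrays alone, so its calls are no support for the difference. Under the 4 other treatments the Fgf10 difference was −4.28 to −0.99, so the bound holds for the 1 scale alone. Of 6 immune markers, whose cells are not part of dental epithelium, 4 were well above background on all arrays of double null, 4 on those of Bmi1 null and 6 on those of WT. Their median percentile rank was 37.7 to 38.8 in double null, 29.8 to 38.5 in Bmi1 null and 75 to 77.9 in WT colonies. The median rank of 886 olfactory receptor genes was 21.4 to 25.1, 22.5 to 26.0 and 54.1 to 58.9 in the same order. The 12 mesenchymal and fibroblast markers averaged −2.5 to −0.30 on double null, −2.46 to −1.68 on Bmi1 null and −0.97 to −0.73 on WT arrays, so double null colonies spread from below to above WT. The 5 endothelial markers averaged −4.43 to −3.14 on double null, −4.23 to −3.82 on Bmi1 null and −1.70 to −1.47 on WT arrays. The 4 glial, neural and melanocyte markers averaged −0.96 to −0.66 on double null, −0.86 to −0.59 on Bmi1 null and 0.41 to 0.81 on WT arrays. The part of the array range in these marker shifts was not tested, nor was the part of either in the ligands' fall.

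Transducers are the adaptors and kinases from receptor to ERK. In each comparison with WT 15 of 17 rose and 1, the adaptor Frs3, fell, where 25.5% and 25.2% of all genes rose and 59.9% and 58.3% fell. Relative to all genes the median of the 17 was 2.91 in double null and 2.51 in Bmi1 null colonies. In the same order it was lower after quantile normalization, at 1.66 and 1.45, and in the authors' table, at 1.30 and 1.33. The genes named next are given relative to the median of all genes as well. Ptpn11, the phosphatase that links receptors to RAS, rose by 2.96 ± 0.24 in double null and by 2.90 ± 0.24 in Bmi1 null colonies (log2, SE, limma adjusted p = 3.18e-07 and 4.19e-07), or 4.37 and 4.14 relative to the median, and 1 of its 3 probes stood at 0.42 and 0.10. Nras, a RAS protein, rose by 2.49 ± 0.18 in double null colonies (limma adjusted p = 1.05e-07), or 3.89 relative to the median, while its other probes stood at 1.07 and 0.33. Among 12 receptors and coreceptors 7 rose and 4 fell in each comparison, and with median scaling 7 rose and 1 fell in double null and 8 rose and 1 fell in Bmi1 null colonies. Relative to all genes their median was 2.47 in double null and 2.24 in Bmi1 null colonies. In the same order it was 0.85 and 0.55 after quantile normalization and 0.83 and 0.74 in the authors' table. Flrt3 and Flrt2, membrane proteins that bind FGF receptors, rose by 2.66 ± 0.25 and 2.54 ± 0.19 in double null (limma adjusted p = 9.43e-07 and 1.42e-07), and Flrt3 rose by 2.77 ± 0.25 in Bmi1 null colonies (limma adjusted p = 7.99e-07), or 4.07, 3.94 and 4.01 relative to the median. Of 11 other feedback inhibitors, 4 rose and 3 fell in double null, and 6 rose and 3 fell in Bmi1 null colonies. With median scaling 7 rose and 2 fell in double null, and 8 rose and 3 fell in Bmi1 null colonies. Dusp7, a phosphatase of ERK like Dusp6, rose by 2.12 ± 0.23 and 2.71 ± 0.23 (limma adjusted p = 2.90e-06 and 4.78e-07), or 3.52 and 3.95 relative to the median. Of 9 other targets, 9 rose in double null and 6 in Bmi1 null colonies, and with median scaling 9 in both.

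Between the mutants 7 of 69 pathway genes were called, 2 higher and 5 lower, where 7.56% of all genes were called. The immediate early factors Egr1 and Fos, both induced by ERK, rose in double null colonies. Egr1 was at 2.05, 1.90, 2.63 and 2.00 on double null, 1.42, −0.31, −0.05 and 0.02 on Bmi1 null and −0.36, 0.20, 0.25 and 0.68 on WT arrays. Every double null colony lay above all others. The log2 fold change between the mutants was 1.88 ± 0.36 for Egr1 and 1.20 ± 0.27 for Fos (SE, limma adjusted p = 0.00782 and 0.0185), and Fos missed the threshold with quantile normalization (limma adjusted p = 0.0598). Fosl1, another Fos family factor induced by ERK, fell by 1.53 ± 0.27 (limma adjusted p = 0.00545), so targets did not change in 1 direction. The inhibitors Spred3, Dusp1 and Dusp4 fell, by 1.58, 1.08 and 1.0 (limma adjusted p = 0.00397, 0.0330 and 0.0301). The Dusp1 call remained after normexp and ended under the other 3 treatments, which were median scaling (limma adjusted p = 0.0524), quantile normalization (0.104) and the authors' table (0.108). Dusp4 was called in the authors' table (limma adjusted p = 0.0491) and under none of the other 3 treatments. Spred3 belongs to a family related to the Sproutys, and Dusp1 and Dusp4 are phosphatases of the MAP kinases. Fgfbp3, which carries FGFs out of the matrix, fell by 2.04 ± 0.37 (limma adjusted p = 0.00634), and its second probe by 1.80. The transducer Nras was not called on its brightest probe, at 0.24 (limma adjusted p = 0.490), but was called with the mean of its probes, at 0.69 (limma adjusted p = 0.0278), and on its 2 other probes, at 0.86 and 0.96 (limma adjusted p = 0.0456 and 0.0366). The ligand Fgf22 was called lower in the authors' table, at −0.93 (limma adjusted p = 0.0298). Fos, Dusp1 and Dusp4 were singled out after their values were seen. With the slide as a block 0 of the 69 were called. After normexp background correction Fgfbp3 and Spred3 stood at −0.70 and −0.76 and were not called.

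**Figure D4:**
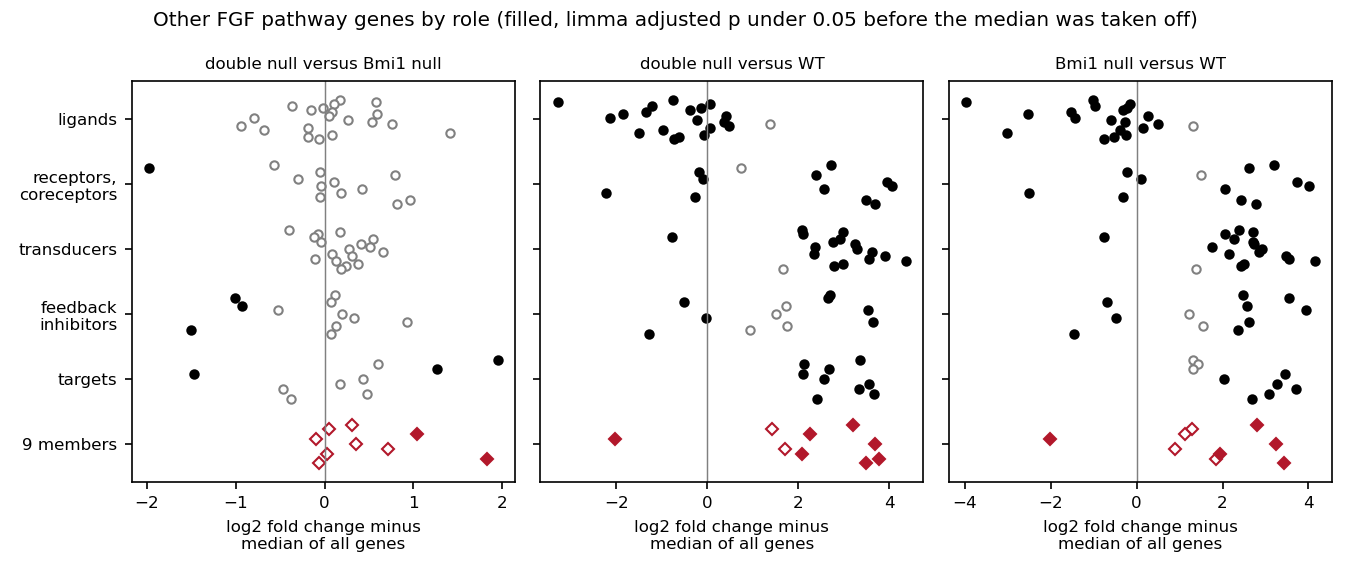
Log2 fold change minus the median of all genes for 69 other FGF pathway genes by role, and for the 9 tested members (diamonds), in the 3 comparisons. Filled symbols passed the limma threshold before the median was taken off. Against WT the ligands lie near or below 0 and most transducers and targets above 0, and between the mutants most genes lie near 0.

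The genes most like each of 4 members were found by the root mean square difference of their values over the 12 arrays, each value taken relative to the array's median of genes and to the gene's own mean, among 16436 genes. For Etv5 they were Suv39h1, a histone methyltransferase, at 0.14 and Cenpa, the centromeric histone, at 0.15. For Dusp6 they were Rab5if at 0.089 and Anxa11, an annexin, at 0.12. For Spry2 they were Prkcd, a protein kinase C, at 0.23 and Slc38a2, an amino acid transporter, at 0.27. For Fgfr2 (brightest probe) they were Rprd1a at 0.20 and Rbbp5, a subunit of histone methyltransferases, at 0.20. The members' own spread on that measure was 0.88, 1.40, 1.61 and 0.76 in the order Etv5, Dusp6, Spry2 and Fgfr2. The 12 arrays fall into 3 genotypes with WT apart, which these values share.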

How the data were processed

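The authors scanned the arrays with Feature Extraction 10.7.3.1 and deposited a processed signal for each spot, a background-subtracted linear intensity, per the file headers. The authors' deposited table of the same arrays holds log2 values, with column medians of 7.21 to 7.24; its normalization is not stated in the sources used here. RNA was amplified and labelled with Cy3, per the labels' protocols. Depth does not apply to arrays, and the number of arrays limits the precision.

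Control and outlier spots were left out, the 75th percentile of each array was taken off its log2 signal, and probes well above background on at least 3 of 4 arrays of a genotype were kept, 39338 in all. The brightest probe stood for a gene. Of 41174 probes 24844 had 1 symbol through RefSeq and 16330 none. Limma 3.58.1 in R 4.3.3 (lmFit, eBayes) fitted a mean per genotype to the 12 arrays, with Benjamini-Hochberg adjustment over 31064 genes and a call at adjusted p under 0.05. Fits were tested on simulated data.

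The alternatives were median scaling, quantile normalization, normexp with offset 50 (on spot medians and local background, where spot means had been planned), the authors' table, other probe filters and probe rules, slide as a block, replicate number as a block, the 8 mutant arrays alone, and leaving out each colony. The arrays lay on 5 slides. Other pathway genes were named as up to 4 called genes per comparison with the largest change relative to the median, beside Bmi1, Cdkn2a and the genes most alike. The members and lists were chosen with earlier results of these data known. Replicate numbers are those of the titles, and same-numbered colonies did not deviate together (r = −0.148 to 0.215).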

Additional observations from a re-analysis of the deposited data

Results flagged for a closer look

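Chance sets 1 colony this far apart in about 1 of 20 groups of 4, and 2 of 52 sets of a probe and a genotype had one. On the dimmest Fgfr1 probe, WT replicate 3 was at −0.32, above the other 3 WT colonies. On the brightest Etv5 probe, Bmi1 null replicate 1 was at −0.37, above the other 3 Bmi1 null colonies.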

How the results depend on the processing

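Spry1 and Etv5 were called between the mutants under the scalings, background corrections, filters and probe rules tried except that slide as a block ended both calls. The count of members called moved to 0 there, and to 8 in Bmi1 null against WT with median scaling. With 1 colony left out, 2 members were called between the mutants, 7 in double null against WT and 5 to 6 in Bmi1 null against WT. Pathway genes called between the mutants numbered 4 with quantile normalization, 4 with normexp, 4 in the 8 mutant arrays alone, 0 with slide as a block and 4 to 7 with 1 colony left out (4 without Bmi1 null replicate 4, 4 without double null replicate 2). Against WT the pathway counts with 1 colony left out ran from 59 to 61 in both mutants.

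Signs of these values turned, and the cause was not tested. Etv5 in Bmi1 null against WT was 0.81 with median scaling. Its second probe was 0.88 with median scaling and 0.88 in the authors' table in double null, and 0.42 in the authors' table in Bmi1 null colonies. The second Spry2 probe was 0.62 in the authors' table in double null, and 0.12 with median scaling and 0.30 in the authors' table in Bmi1 null colonies. The third Fgfr3 probe was 0.093 with median scaling and 0.0031 in the authors' table in Bmi1 null colonies. Against WT in double null, under quantile normalization and by the authors' table, Cdkn2a was 0.52 and 0.13, Fgfbp3 1.62 and 0.65, and Spred3 1.17 and 0.68; median scaling gave Fgfbp3 0.35 and Spred3 0.57. Changes that were not called also turned, among them Fgfr2 in Bmi1 null against WT (0.58 with median scaling), Fgf9 between the mutants (0.43 with normexp) and Etv4 in all 3 comparisons. With normexp Cdkn2a was 0.11 between the mutants and −0.15 in Bmi1 null against WT.

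With replicate number as a block, Spry1 was 1.75 (limma adjusted p = 0.0242) and Etv5 0.97 (limma adjusted p = 0.0302) between the mutants, with 2 members and 5 pathway genes called. Same-numbered colonies did not deviate together, a check that cannot tell whether they share an origin. The block changed no member's call in any of the 3 comparisons. Signals near background limit Spry4, Fgf10 and Cdkn2a.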
